A study of Mus musculus with 4 samples.

Results

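The 5p arms of miR-6896 to miR-7094 are mouse miRNAs with consecutive late numbers. They were chosen here by name, with earlier results of these data known, and the arrays carried 200 of them among 1881 miRNAs. The miRNAs were measured in extracellular vesicles (EVs) that primary hepatocytes of male B6 mice aged 20 weeks had released during 48 h of culture. HFD-LKO EV and Chow-LKO EV came from mice whose liver lacked Ggpps, and HFD-EV and Chow-EV came from wild-type (WT) mice. HFD stands for a high-fat diet of 12 weeks and Chow for the normal diet. Ggpps makes geranylgeranyl pyrophosphate, the lipid that anchors small GTPases such as Rab proteins to membranes, and the arrays, which carry miRNA probes, could not check its loss. The deletion used floxed Ggpps alleles and Mx1-Cre, an interferon-responsive transgene switched on by injected polyinosinic-polycytidylic acid and also active in blood cells, and the methods do not say whether WT mice were injected. Each group was 1 array of EVs pooled from 4 animals, so groups lacked replicates, and no model over the 4 arrays was fitted. Errors (±) combine the SDs over the repeated spots of each probe of a miRNA and, for a ratio, of both arrays. They hold only the measurement noise of an array and leave out differences between the probes of a miRNA. On bulk EVs, fewer EVs of a kind and less of a miRNA per EV cannot be told apart. miR-122-5p, the defining miRNA of hepatocytes, gave signals of 86069 in HFD-LKO EV, 89291 in Chow-LKO EV, 91412 in HFD-EV and 82637 in Chow-EV.

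Most miRNAs are cut from long transcripts by the nuclease Drosha and then by Dicer. Mirtrons skip the Drosha step. Their hairpin is a short intron, or an end of one, which the spliceosome releases and the debranching enzyme Dbr1 opens before Dicer cuts it into a 5p and a 3p arm. In a tailed mirtron a splice site sets only 1 end of the hairpin and nucleases trim the other. An intron opens with GU and closes with AG behind a pyrimidine-rich stretch, so a mirtron can carry these marks in its own sequence. The seed, bases 2 to 8 of the mature miRNA, is the part that pairs with target mRNAs.

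RefSeq sequences on GRCm38.p6 were found by name for 176 of the 200 members, and 175 of them had a single position. The sequences below are those of the 8 matched members among the 10 brightest, with the seed in capitals.
miR-7005-5p (chr2:180179797-180179818, minus strand): cCUGGGGAugggaggaccagca
miR-6969-5p (chr17:28558475-28558496, minus strand): cAGCAGAGuagggagcaaaaga
miR-7047-5p (chr7:24987640-24987662, minus strand): uGAGGGAGgagggcugggucuga
miR-6931-5p (chr11:102999896-102999916, minus strand): uGGGGUGGggagugggggacu
miR-7036a-5p (chr5:137296661-137296683, minus strand): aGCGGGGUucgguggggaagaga
miR-7082-5p (chr9:21075563-21075583, minus strand): uACGGGCAggaggaggggagg
miR-6908-5p (chr10:78445131-78445152, minus strand): uUGCCUGUcagggagagcccca
miR-6937-5p (chr12:28679325-28679348, plus strand): uAGCUGUAagggcugggucugugu

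The next set holds members with large differences between groups and members that share a seed with another member, again with the seed in capitals.
miR-6938-5p (chr12:85245958-85245980, minus strand): uUGGAGCUagcuccagagagagu
miR-6955-5p (chr15:78891845-78891868, plus strand): aGGGCCUCaggacucaggagguga
miR-6915-5p (chr10:128388837-128388860, plus strand): aGGUCAGAgcagauggagguucgu
miR-7022-5p (chr4:148146973-148146995, minus strand): cCUGGCAAggaagggcucuguuu
miR-7044-5p (chr6:118085197-118085215, plus strand): gUGUGGUGgugguggcggc
miR-7008-5p (chr3:31038971-31038994, plus strand): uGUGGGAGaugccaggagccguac
miR-6922-5p (chr11:60202300-60202322, minus strand): uGUGGGAGgggacuguagagagg
miR-6965-5p (chr17:24240919-24240942, minus strand): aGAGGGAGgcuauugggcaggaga
miR-6990-5p (chr19:6914261-6914281, minus strand): cCCAGGGUgagucagggcucu
miR-7032-5p (chr5:123996857-123996882, plus strand): cCCAGGGUgguccccgagaggguggu

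The whole hairpins of 3 members show where the mature arm lies, here with the 5p arm in capitals.
miR-7005 hairpin (chr2:180179755-180179823, minus strand): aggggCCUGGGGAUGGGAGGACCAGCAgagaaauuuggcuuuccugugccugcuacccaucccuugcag
miR-6955 hairpin (chr15:78891840-78891913, plus strand): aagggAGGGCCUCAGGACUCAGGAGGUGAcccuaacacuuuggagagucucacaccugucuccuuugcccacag
miR-6915 hairpin (chr10:128388832-128388900, plus strand): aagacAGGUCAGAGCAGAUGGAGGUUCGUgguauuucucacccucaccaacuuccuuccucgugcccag

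All 3 of these hairpins end in AG, and none of them opens with GU. Over the members with a RefSeq hairpin, 159 of 172 (92.4%) ended in AG, against 76 of 780 hairpins (9.74%) of the other miRNAs on the arrays. Only 26 of the 172 member hairpins (15.1%) opened with GU, against 48 of 780 (6.15%), and 20 members carried both marks. The end that carries the splice mark in most members is thus the 3p side. A tail on the 5′ side cannot be read from this, since a hairpin record need not open at a splice site. These letter matches are a description and do not show splicing. The 66-base median length of the member hairpins was below the 83 bases of the others.

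The 175 members with a single position were spread over 19 chromosomes, and 154 of them (88.0%) lay within the span of a protein-coding gene on the same strand. For the other 21 the strand of the gene around them was not given. The gene table gives spans without exons, so introns were not read from it. miR-7005 lay in Lama5, the gene of a basement-membrane laminin chain, miR-6955 in Gga1, a clathrin adaptor of the trans-Golgi network, and miR-6938 in Mlh3, a DNA mismatch repair gene. miR-7036a lay in Srrt, whose product takes part in miRNA processing itself. Among 151 host genes, 3 held a pair of members, namely Ankrd52 (miR-6914 and miR-6915), Cmip (miR-7077 and miR-7078) and Srebf1 (miR-6921 and miR-6922). Host mRNAs were not measured.

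The arm seen in the EVs was nearly always the 5p arm. The files mark each spot as well above background or not, and a miRNA counted as above background on an array if over 50% of the spots of any of its probes had the mark. By this call 50.5% of the members were above background in HFD-LKO EV, 47.5% in Chow-LKO EV, 49.5% in HFD-EV and 50.5% in Chow-EV. On at least 1 array 106 of 200 members (53.0%) were above background, against 5 of 199 3p arms of the same hairpins (2.51%) and 431 of 1482 other miRNAs (29.1%). On all 4 arrays the counts were 89 members (44.5%), 2 of the 3p arms and 352 of the other miRNAs (23.8%). Of 198 hairpins with both arms on the arrays, only the 5p arm was above background for 102, only the 3p arm for 2, both for 3 and neither for 91.

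The 5 detected 3p arms were dim. miR-6976-3p, whose 5p arm was above background on no array, was the brightest of them at 88.6 in HFD-LKO EV, 78.4 in Chow-LKO EV, 60.5 in HFD-EV and 76.7 in Chow-EV. miR-7033-3p, whose 5p arm was above background on all 4 arrays, gave 66.0, 65.9, 66.6 and 70.8 in the same groups. Among the 3p arms of the members named in this section, miR-7045-3p was the one above background, in HFD-LKO EV (36.8) and Chow-LKO EV (32.9) and not in HFD-EV or Chow-EV.

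The members were rich in G. G made up a mean of 44.2 ± 8.91% of the mature sequence of 176 members, 15.7 ± 7.58% of 175 3p arms and 27.3 ± 11.8% of 1257 other miRNAs (SD across miRNAs). The 3p arms carried C (40.1%) and U (31.7%) instead. A run of GGG stood in 75.6% of the members, 4.57% of the 3p arms and 27.7% of the other miRNAs, and a run of GGGG, which also counts as GGG, in 38.1%, 1.14% and 8.99% (searched on the mature strand).

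Above-background calls went with the share of G, in the members and in the rest of the arrays. Members above background on all 4 arrays had a mean G share of 48.0%, and those above on none 40.9%. In the other miRNAs the same means were 35.5% and 24.3%. With at least 50% G, 43 of 55 members (78.2%) and 52 of 62 other miRNAs (83.9%) were above background on at least 1 array. With 40% to below 50%, 32 of 66 members (48.5%) and 80 of 132 other miRNAs (60.6%) were, and with 30% to below 40%, 18 of 47 (38.3%) and 96 of 282 (34.0%). Below 30% it was 1 of 8 members, 138 of 781 other miRNAs (17.7%) and 4 of 169 3p arms (2.37%). In 3 of the 4 classes the members' share was thus below that of the other miRNAs, and the 3p arms had 6 of 175 sequences outside the lowest class. These classes were set after the values were seen, and the part of base composition in the calls was not tested. Every deposited probe sequence checked, 176 of 176, lay inside the RefSeq mature sequence and reached its 3′ end, with 11 to 19 matching bases.

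**Figure D1:**
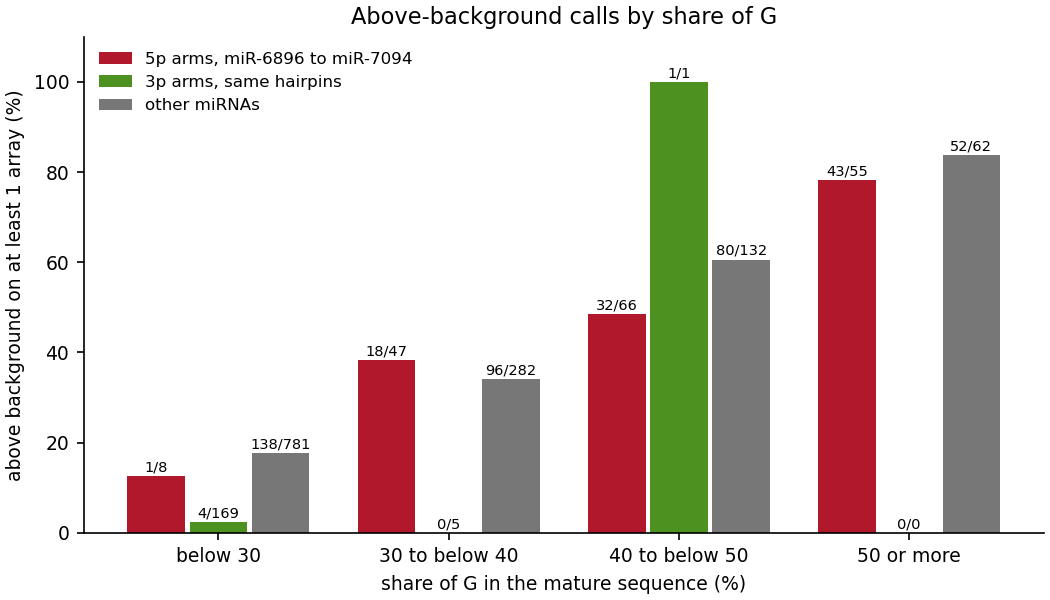
Share of miRNAs above background on at least 1 array (y axis, %) in 4 classes of G share in the mature sequence (x axis, %), for the 5p arms of miR-6896 to miR-7094, the 3p arms of the same hairpins and the other miRNAs. The fraction over each bar is the number above background over the number in the class, and the red bar goes up from 12.5% in the lowest class to 78.2% in the highest.

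Most of the members' signal came from 3 of them. Their share of the signal of all miRNAs above background was 16.5% in HFD-LKO EV, 15.5% in Chow-LKO EV, 16.8% in HFD-EV and 14.7% in Chow-EV, which is a share of signal and not of molecules. The 3p arms held between 0.0253% and 0.0376%. The 3 brightest members of each array gave 63.6%, 56.5%, 67.3% and 55.9% of the members' signal, in the same order of groups. Without the brightest, miR-7042-5p, the share was 10.6% in HFD-LKO EV, 9.42% in Chow-LKO EV, 11.7% in HFD-EV and 10.1% in Chow-EV. The median member above background was far dimmer, at 116 in HFD-LKO EV, 135 in Chow-LKO EV, 114 in HFD-EV and 108 in Chow-EV.

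miR-7042-5p gave a signal of 36392 in HFD-LKO EV, 43146 in Chow-LKO EV, 33450.1 in HFD-EV and 28423 in Chow-EV, and it ranked 3rd, 3rd, 5th and 6th among all miRNAs of those arrays. It is thus among the strongest signals of these EVs in every group. miR-7005-5p gave 13773 in HFD-LKO EV, 8718 in Chow-LKO EV, 27376 in HFD-EV and 11787 in Chow-EV, so HFD-EV stood far above the others. miR-6969-5p gave 14872, 10411, 12915 and 10566 in the same order. The plot of the brightest members shows that the next 7 lay between 1064 and 6677, with levels that crossed between groups. miR-7047-5p gave 3208 in HFD-LKO EV, 5772 in Chow-LKO EV, 3741 in HFD-EV and 5920.1 in Chow-EV, and was lower in both HFD groups. miR-7036a-5p gave 4472 in HFD-LKO EV, 6183 in Chow-LKO EV, 2419.9 in HFD-EV and 3483 in Chow-EV, and was higher in both LKO groups. miR-7040-5p gave 2255 in HFD-LKO EV, 2660.2 in Chow-LKO EV, 3997 in HFD-EV and 4905 in Chow-EV, and was lower in both LKO groups.

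**Figure D2:**
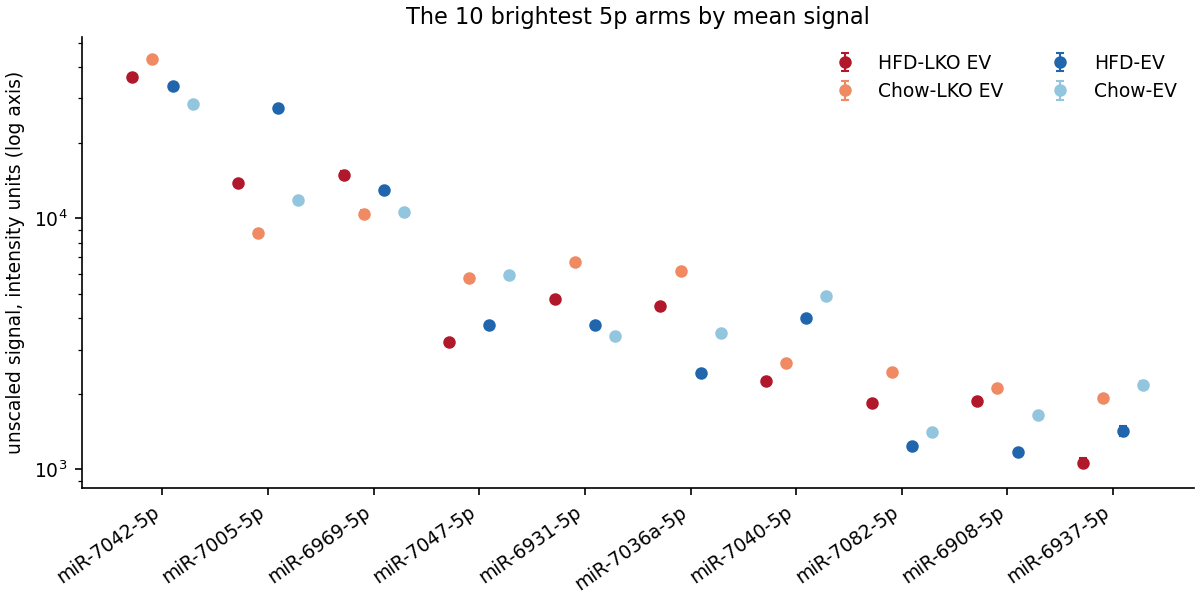
Unscaled signal (y axis, intensity units, log axis) of the 10 members with the highest mean signal, for the 4 arrays. Points are arrays and bars are the SD between spots, which is smaller than most points. miR-7005-5p shows the widest gap among the 3 brightest, with HFD-EV at 27376 and Chow-LKO EV at 8718.

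For comparisons, each array's signals were divided by their 75th percentile among the 443 miRNAs detected above background in every group, a value of 528 in HFD-LKO EV, 614 in Chow-LKO EV, 561 in HFD-EV and 508 in Chow-EV. A log2 ratio compares these scaled signals, while the signals printed here are unscaled. The median log2 ratio of all miRNAs was then 0.10 for HFD-EV over Chow-EV, -0.13 for Chow-LKO EV over Chow-EV, -0.06 for HFD-LKO EV over HFD-EV and 0.14 for HFD-LKO EV over Chow-LKO EV. Without scaling it was 0.25, 0.14, -0.15 and -0.08, so small ratios carry no direction and members are read against the other miRNAs of the same comparison. The members' medians were 0.09, -0.11, -0.02 and 0.15, each within 0.05 of the median of all miRNAs.

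**Figure D3:**
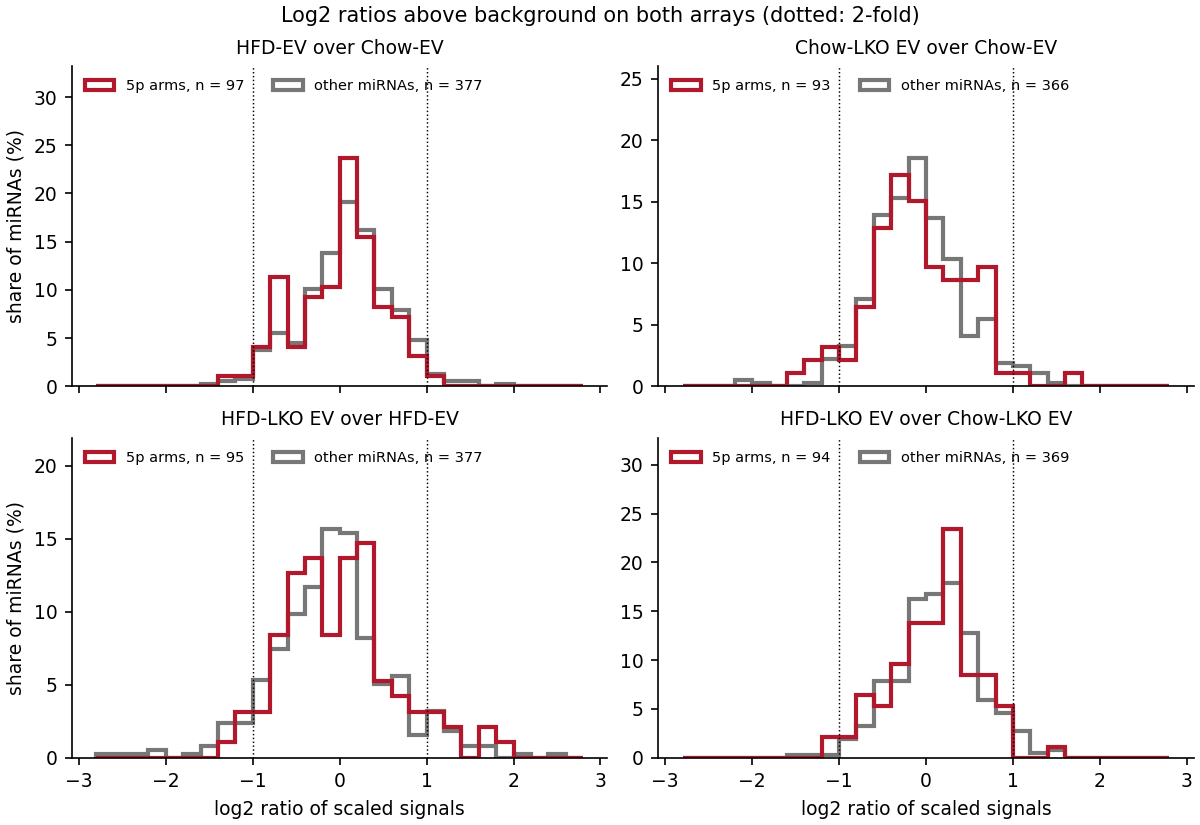
Distribution of log2 ratios of scaled signals (x axis) as the share of miRNAs in bins (y axis, %) for the 4 comparisons, with the 5p arms of miR-6896 to miR-7094 and the other miRNAs above background on both arrays. Dotted lines mark a 2-fold difference, and the members' medians of 0.09, -0.11, -0.02 and 0.15 lie where those of the other miRNAs do.

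On scaled signals, Ggpps loss on the high-fat diet gave more 2-fold differences than the other comparisons, a count that rested on the correction used. In HFD-LKO EV over HFD-EV, 9 of 104 members with a ratio or a bound were at least 2-fold higher (8.65%, against 7.87% of all miRNAs) and 7 were at least 2-fold lower (6.73%, against 7.49%). In either direction it was 16 members, against 15.4% of all miRNAs. A bound stands in for a ratio where a miRNA was above background on only 1 of the 2 arrays. It carries no spot SD, so "at least" is not a strict lower limit. The members measured on both arrays ran from -1.28 to 1.87 on the log2 scale. With normexp background correction, which adds an offset, 1 member was higher and 0 lower (10 and 5 of all miRNAs, against 41 and 39 before), and with the authors' normalised values 3 and 0 (16 and 6 of all miRNAs). By the count past 2 spot SDs, 29 of 95 members were higher (30.5%, against 24.7% of all miRNAs) and 29 lower (30.5%, against 36.3%). None of these 58 turned sign under 5 other scalings and corrections, and 56 kept their direction in all of them, while miR-6969-5p and miR-7047-5p had a ratio of 0 with quantile normalisation. In every comparison these 5 settings leave out Feature Extraction's own total signal per miRNA. With that total miR-6901-5p turned from -0.65 to 1.67 here.

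miR-6915-5p, encoded within Ankrd52, gave 679 in HFD-LKO EV and 865 in Chow-LKO EV, against 197 in HFD-EV and 381 in Chow-EV. Both LKO groups lay above both WT groups. Its log2 ratio was 1.87 ± 0.15 for HFD-LKO EV over HFD-EV, the third highest of 474 miRNAs, and 0.91 ± 0.20 for Chow-LKO EV over Chow-EV. The ratio with the high-fat diet lay between 1.40 and 1.97 over 11 settings. miR-7022-5p gave 118 in HFD-LKO EV and 135 in Chow-LKO EV, against 39.5 in HFD-EV and 66.7 in Chow-EV, with a log2 ratio of 1.66 ± 0.25 on the high-fat diet and 0.74 ± 0.17 on chow. miR-6963-5p, which lies in the integrin gene Itga5, gave 744 and 1166 in HFD-LKO EV and Chow-LKO EV, against 354 and 574 in HFD-EV and Chow-EV, and ratios of 1.16 ± 0.07 and 0.75 ± 0.10. For these 3 miRNAs the ratio was positive on both diets and larger on the high-fat diet, and the difference between diets was not tested. miR-6909-5p (1.25 ± 0.14) and miR-6980-5p (1.21 ± 0.14) were also over 2-fold higher in HFD-LKO EV than in HFD-EV. miR-7037-5p reached 1.69 ± 0.44, at a dim 60.5 in HFD-LKO EV, against 19.9 in HFD-EV, and lay between 0.42 and 1.80 over the settings that gave it. miR-7032-5p (1.09 ± 0.13) and miR-7043-5p (1.12 ± 0.18), which is named after its values were seen, complete the ratios past 2-fold.

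At least 2-fold lower in HFD-LKO EV than in HFD-EV were 4 members with a ratio and 3 with a bound. miR-7016-5p gave 49.3 in HFD-LKO EV, 99.8 in Chow-LKO EV, 127 in HFD-EV and 108 in Chow-EV, so HFD-LKO EV stood alone at the bottom, with a log2 ratio of -1.28 ± 0.19 over HFD-EV. miR-6995-5p likewise gave 128 in HFD-LKO EV, 255 in Chow-LKO EV, 303 in HFD-EV and 304 in Chow-EV, with -1.16 ± 0.09. miR-7008-5p, in the gene of the atypical protein kinase C iota (Prkci), gave 66.9 in HFD-LKO EV and 51.5 in Chow-LKO EV, against 153 in HFD-EV and 108 in Chow-EV, with -1.10 ± 0.15 on the high-fat diet. miR-6991-5p had -1.16 ± 0.27. The bounds were at least 2.65-fold for miR-7015-5p, at least 2.30-fold for miR-6958-5p and at least 2.04-fold for miR-6919-5p, all of them above background in HFD-EV and not in HFD-LKO EV. The largest bounds the other way were at least 2.02-fold for miR-6938-5p, at least 1.86-fold for miR-6918-5p and at least 1.65-fold for miR-6947-5p, which were above background in HFD-LKO EV and not in HFD-EV. For miR-7015-5p, miR-6919-5p and miR-6938-5p the bound is the ratio to a signal not above background, so the fold may be smaller.

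Fewer members passed 2-fold with Ggpps loss on chow, except under normexp. In Chow-LKO EV over Chow-EV, 2 of 103 members were at least 2-fold higher (1.94%, against 2.92% of all miRNAs) and 6 at least 2-fold lower (5.83%, against 5.45%), or 8 in either direction, against 8.37% of all miRNAs. With normexp the counts were 0 and 2 (2 and 3 of all miRNAs), with the authors' normalised values 0 and 1 (5 and 2 of all miRNAs), and without scaling 7 and 2 (37 and 8 of all miRNAs, against 15 and 28 with it). Past 2 spot SDs there were 21 of 93 members higher (22.6%, against 20.3% of all miRNAs) and 33 lower (35.5%, against 36.5%), of which 47 of 54 kept their direction under the other 5 settings.

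The lowest was miR-6955-5p, whose host Gga1 sorts cargo at the Golgi. It gave 126 in HFD-LKO EV, 49.3 in Chow-LKO EV, 217 in HFD-EV and 123 in Chow-EV, so Chow-LKO EV was the low array. Its log2 ratio was -1.60 ± 0.17 on chow, and its 2 probes gave -1.70 and -1.50. With the high-fat diet the ratio was -0.69 ± 0.12. Over 11 settings the chow ratio lay between -1.72 and -0.78, always negative. miR-7044-5p gave 841 in HFD-LKO EV and 617 in Chow-LKO EV, against 1527 in HFD-EV and 1197 in Chow-EV, and both LKO groups lay below both WT groups. Its ratio was -1.23 ± 0.07 on chow. miR-7008-5p (-1.34 ± 0.16), miR-6916-5p (-1.18 ± 0.14), miR-7040-5p (-1.16 ± 0.04) and miR-6991-5p (-1.10 ± 0.29) made up the 6. Bounds on chow stayed under 2-fold, the largest being at least 1.71-fold lower for miR-6910-5p and at least 1.54-fold higher for miR-7039-5p.

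The highest was miR-6938-5p, which was dim. It gave 50.8 in HFD-LKO EV, 133 in Chow-LKO EV, 26.7 in HFD-EV and 32.8 in Chow-EV, and the value in HFD-EV was not well above background. Its ratio for Chow-LKO EV over Chow-EV was 1.75 ± 0.25, and it lay between 0.33 and 2.02 over the settings tried. Only 1 of its 3 probes was above background in Chow-EV. On the high-fat diet it was at least 2.02-fold higher in HFD-LKO EV than in HFD-EV. miR-6980-5p, at 209 and 269.5 in HFD-LKO EV and Chow-LKO EV, against 96.4 and 99.1 in HFD-EV and Chow-EV, was the other member past 2-fold on chow, at 1.17 ± 0.10.

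Few members differed past 2-fold with the high-fat diet by itself. In HFD-EV over Chow-EV, 1 of 103 members was at least 2-fold higher (0.971%, against 2.74% of all miRNAs) and 2 at least 2-fold lower (1.94%, against 1.76%), or 3 in either direction, against 4.5% of all miRNAs. Past 2 spot SDs there were 24 of 97 members higher (24.7%, against 33.3% of all miRNAs) and 29 lower (29.9%, against 23.9%), and 52 of these 53 kept their direction under the other 5 settings. The higher one was miR-7005-5p at 1.07 ± 0.06, which lay between 0.98 and 1.30 under those settings, and its 2 probes gave 1.06 and 1.16. The lower ones were miR-6915-5p (-1.09 ± 0.16) and miR-7037-5p (-1.31 ± 0.47), whose sign turned with Feature Extraction's own total signal per miRNA (4.75).

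Members just under 2-fold were dim. miR-7015-5p had 0.97 ± 0.25 at 53.2 in HFD-EV, against 24.6 in Chow-EV, and miR-6935-5p had -0.97 ± 0.21 at 54.0 in HFD-EV, against 95.8 in Chow-EV. No bound reached 2-fold, the largest being at least 1.86-fold higher for miR-6919-5p and at least 1.49-fold lower for miR-6918-5p. Bright members also stayed under 2-fold. miR-7047-5p had a log2 ratio of -0.81 ± 0.05, miR-6937-5p of -0.76 ± 0.08, miR-7036a-5p of -0.67 ± 0.04 and miR-6908-5p of -0.62 ± 0.05 in HFD-EV over Chow-EV. All 4 ratios were negative under the other 5 settings too.

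Within Ggpps-deficient EVs the diet gave 1 of 102 members at least 2-fold higher (0.980%, against 4.21% of all miRNAs) and 2 at least 2-fold lower (1.96%, against 1.53%) in HFD-LKO EV over Chow-LKO EV. In either direction it was 3 members, against 5.75% of all miRNAs. Without scaling, 5 were lower, as were 23 of all miRNAs, against 8 with it. Past 2 spot SDs there were 30 of 94 members higher (31.9%, against 37.1% of all miRNAs) and 18 lower (19.1%, against 18.7%), and 45 of these 48 kept their direction. miR-6955-5p was the higher one, at 1.57 ± 0.15, the highest of 466 miRNAs in this comparison, and between 0.71 and 1.63 over 11 settings. The lower ones were miR-6938-5p (-1.17 ± 0.19) and miR-6944-5p (-1.05 ± 0.07). Probes 1 and 2 of miR-6944-5p gave -1.22 and -0.71, so its probe 2 stayed short of 2-fold. miR-6944-5p, in the gene of the actin-binding protein drebrin (Dbn1), gave 436 in HFD-LKO EV, 1050.1 in Chow-LKO EV, 369.8 in HFD-EV and 544 in Chow-EV, so that Chow-LKO EV was the high array and both HFD groups lay low. miR-6987-5p, at 712, 1598, 664 and 927 in the same order, had -0.95 ± 0.04. The largest bounds were at least 1.71-fold higher for miR-6901-5p and at least 1.23-fold lower for miR-6957-5p.

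**Figure D4:**
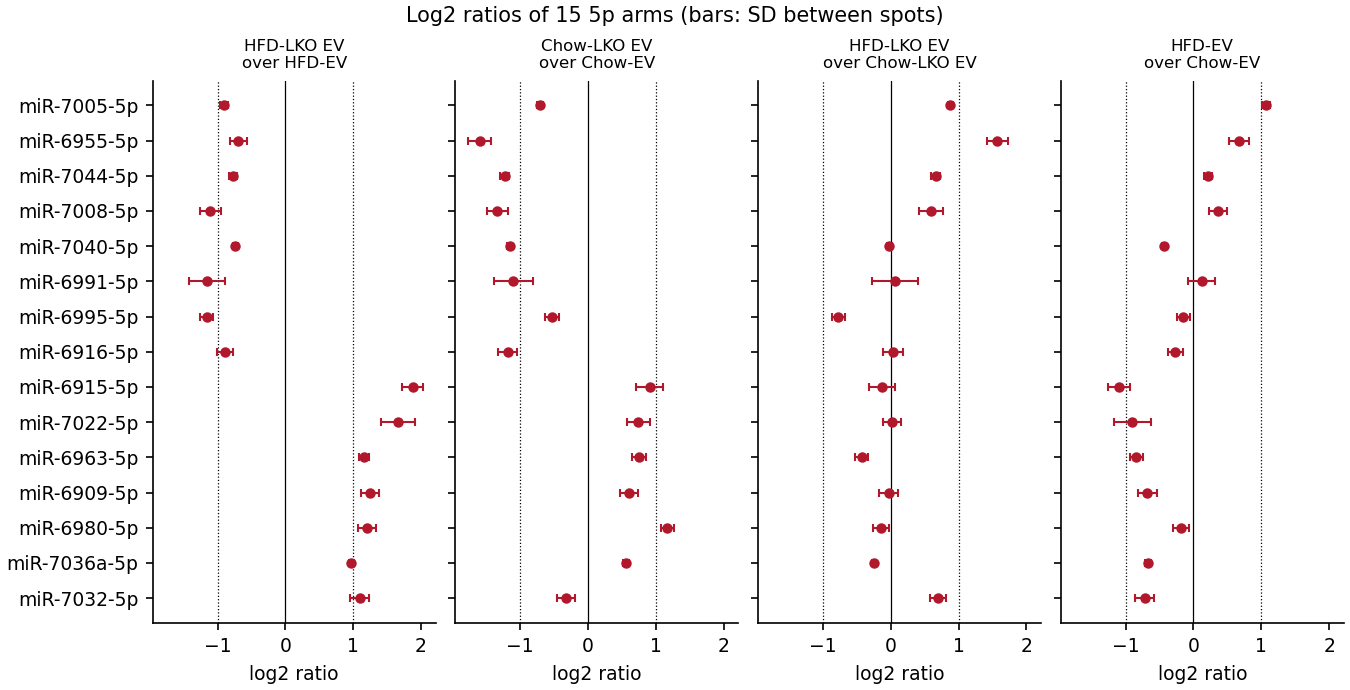
Log2 ratios of scaled signals (x axis) of 15 members (rows) in the 4 comparisons (panels), with bars for the SD between spots and dotted lines at 2-fold. The 8 upper rows are negative and the 6 rows below them positive in both panels of Ggpps loss, while miR-7032-5p in the last row is 1.09 on the high-fat diet and -0.33 on chow.

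The 2 comparisons of Ggpps loss share no array, so their ratios can be set side by side, although all 4 arrays share the scaling. Over the 89 members measured on all 4 arrays, the ratio on the high-fat diet and that on chow correlated with Pearson's r = 0.78 and Spearman's rho = 0.81. This is a description across miRNAs, which are not replicates, and over 354 other miRNAs r was 0.81. Both ratios were positive for 33 members, both negative for 42 and opposite for 14. At least 1.5-fold higher on both diets were 6 members (6.74%, against 8.35% of all miRNAs), miR-6909-5p, miR-6915-5p, miR-6963-5p, miR-6980-5p, miR-7022-5p and miR-7037-5p. At least 1.5-fold lower on both were 10 members (11.2%, against 11.5% of all miRNAs). The 10 hold miR-7005-5p, miR-6955-5p, miR-6916-5p, miR-6990-5p, miR-6991-5p, miR-7008-5p, miR-7012-5p, miR-7040-5p and miR-7044-5p, and miR-7035-5p, which the naming rule did not cover. Past 2 spot SDs in opposite directions were 4 members (4.49%, against 4.06% of all miRNAs), miR-6969-5p, miR-7032-5p, miR-6939-5p and miR-7020-5p, the last pair outside the naming rule. Past 2-fold on both diets were miR-6980-5p, higher, and miR-6991-5p and miR-7008-5p, lower, against 9 higher and 8 lower among the 354 other miRNAs. Probe 1 of miR-6980-5p and of miR-6991-5p was above background on no array, so their calls rest on probe 2. Probes 1 and 2 of miR-7008-5p gave -0.82 and -1.20 on the high-fat diet and -0.66 and -1.65 on chow. Its probe 1 thus stayed short of 2-fold on both diets.

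**Figure D5:**
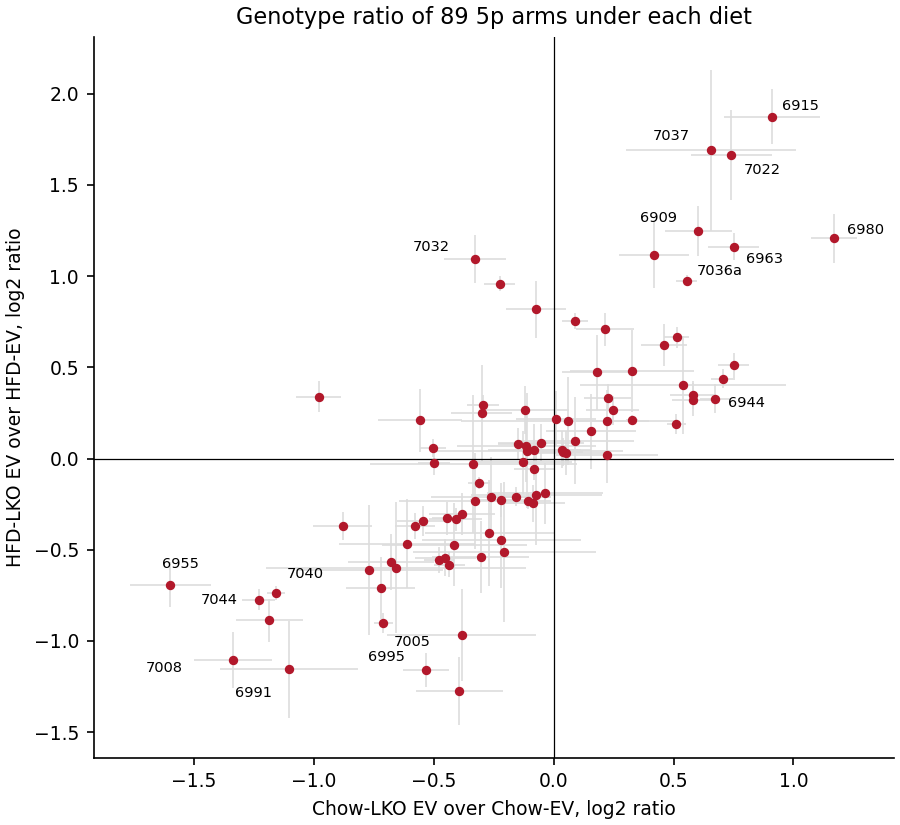
Log2 ratio of HFD-LKO EV over HFD-EV (y axis) against that of Chow-LKO EV over Chow-EV (x axis) for 89 members above background on all 4 arrays. Points are members, bars are the SD between spots, numbers name members, and most points lie at the lower left (42) and the upper right (33).

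The 2 diet comparisons share no array either. Over the same 89 members their ratios had r = 0.62 and rho = 0.68, and over 354 other miRNAs r = 0.68. At least 1.5-fold higher in both genotypes were 5 members (5.62%, against 7.90% of all miRNAs), miR-6907-5p, miR-6955-5p, miR-7005-5p, miR-7070-5p and miR-7035-5p, the last outside the naming rule. miR-7005-5p had 0.88 ± 0.03 for HFD-LKO EV over Chow-LKO EV beside 1.07 ± 0.06 in HFD-EV over Chow-EV. At least 1.5-fold lower in both were 5 members (5.62%, against 4.06% of all miRNAs), miR-6937-5p, miR-6944-5p, miR-6987-5p, miR-7002-5p and miR-7047-5p. miR-7002-5p, which lies in Aqr, the gene of an RNA helicase of the spliceosome, gave 305 in HFD-LKO EV, 620.3 in Chow-LKO EV, 485 in HFD-EV and 693 in Chow-EV. Past 2 spot SDs in opposite directions in the 2 genotypes were 6 members (6.74%, against 4.29% of all miRNAs), among them miR-7032-5p.

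On scaled signals, a pair of opposite orders of the 4 arrays was the most frequent. HFD-EV was the highest and Chow-LKO EV the lowest for 27 of the 89 members, and Chow-LKO EV was the highest and HFD-EV the lowest for 17. These are 30.3% and 19.1% of the members, against 33.6% and 16.7% of 354 other miRNAs. Under the other 5 settings the members' counts were 16 to 23 and 14 to 24. The gap between the highest and the lowest array had a median of 1.77-fold, against 1.65-fold in the other miRNAs, and reached 2-fold in 33.7% of the members and 31.1% of the others.

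Members with the same seed did not always have like ratios. Among the 176 matched members 18 seeds were shared by at least 2, and 6 of these had at least 2 members above background. miR-6990-5p and miR-7032-5p share CCAGGGU. miR-6990-5p, hosted by the nuclear receptor gene Esrra, gave 122.4 in HFD-LKO EV, 174 in Chow-LKO EV, 213 in HFD-EV and 237 in Chow-EV, and was lower in both LKO groups. miR-7032-5p gave 202 in HFD-LKO EV, 145 in Chow-LKO EV, 100.8 in HFD-EV and 150.2 in Chow-EV, and HFD-LKO EV was its high array. On the high-fat diet the ratios of Ggpps loss for the pair were -0.71 ± 0.17 and 1.09 ± 0.13.

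miR-7008-5p and miR-6922-5p share GUGGGAG, and for HFD-LKO EV over HFD-EV they had -1.10 ± 0.15 and 0.10 ± 0.24. miR-7047-5p and miR-6965-5p share GAGGGAG, and for HFD-LKO EV over Chow-LKO EV both were lower, at -0.63 ± 0.03 and -0.63 ± 0.09. miR-6907-5p and miR-7019-5p share UCUGGGA and had 0.88 ± 0.20 and 0.43 ± 0.36 in that comparison. The pairs miR-7012-5p and miR-7057-5p (AGGAGAG) and miR-6916-5p and miR-6942-5p (AGGAGGA) held dim members, with highest signals of 38.9 for miR-7012-5p, 32.2 for miR-7057-5p and 21.2 for miR-6942-5p.

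In the same way, members of 1 host gene were set side by side for Srebf1, the gene of the lipogenic transcription factor SREBP-1. miR-6921-5p, which is named after its values were seen and shares its seed with miR-423-5p, gave 66.7 in HFD-LKO EV, 62.0 in Chow-LKO EV, 82.1 in HFD-EV and 61.3 in Chow-EV. miR-6922-5p gave 39.8, 37.7, 39.5 and 29.3. The ratio of HFD-EV over Chow-EV was 0.28 ± 0.18 and 0.29 ± 0.22, within 2 spot SDs of 0 for both. In Ankrd52, miR-6915-5p was above background on all 4 arrays and miR-6914-5p on none.

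Of 6 arms of mirtrons outside the number range, 2 were above background. miR-1224-5p gave 15485 in HFD-LKO EV, 20459.9 in Chow-LKO EV, 9467 in HFD-EV and 15303 in Chow-EV, at the level of the brightest members, with 0.80 ± 0.05 in HFD-LKO EV over HFD-EV and -0.84 ± 0.05 in HFD-EV over Chow-EV. The members miR-6908-5p and miR-7036a-5p had 0.75 ± 0.04 and 0.97 ± 0.03 in the first of these and -0.62 ± 0.05 and -0.67 ± 0.04 in the second. Other bright members differed from miR-1224-5p, as miR-7005-5p had -0.90 and 1.07 and miR-7047-5p -0.13 and -0.81. miR-877-5p gave 89.6, 149, 117 and 171 in the same groups, with -0.30 ± 0.17 and -0.69 ± 0.15 in these comparisons. Their 3p arms and both arms of miR-702 were not above background. Of the Drosha-independent miRNAs made from short capped transcripts, miR-320-3p gave 133 in HFD-LKO EV, 144 in Chow-LKO EV, 109 in HFD-EV and 108 in Chow-EV, and miR-484 was not above background.

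Markers of other cell types differed between groups as well. Of 6 immune and Kupffer cell miRNAs 4 were above background, and their summed unscaled signal was 1031 in HFD-LKO EV, 963 in Chow-LKO EV, 719 in HFD-EV and 511 in Chow-EV, with miR-150-5p and miR-142a-5p not above background on any array. Between genotypes miR-142a-3p ran against the sum, with log2 ratios of -0.59 ± 0.16 for HFD-LKO EV over HFD-EV and -0.69 ± 0.25 for Chow-LKO EV over Chow-EV. Between diets miR-223-3p ran against it, at -0.19 ± 0.09 for HFD-LKO EV over Chow-LKO EV. For HFD-EV over Chow-EV it had -0.16 ± 0.09, within 2 spot SDs. Of 2 erythroid miRNAs, miR-451a was above background, at 88.2, 61.6, 44.3 and 28.5 in the same order, and miR-144-3p was not. miR-126a-3p of endothelial cells gave 1037, 1142, 1499 and 1213, and 1 of 4 mesenchymal miRNAs, miR-199a-3p, was above background, at 40.2, 57.4, 30.7 and 29.2. The 6 hepatocyte miRNAs, all above background, had unscaled sums of 96972, 102473, 104464 and 94700 in the same order, most of it from miR-122-5p. On scaled signals, which need not rank the groups as these sums do, 4 of the 6 were lower past 2 spot SDs in HFD-LKO EV over HFD-EV. In Chow-LKO EV over Chow-EV 5 were. The part of these cell types in the members' differences was not tested.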

How the data were processed

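Total EV RNA was labelled and hybridised to 4 single-colour Agilent mouse miRNA arrays. Per the file headers, the authors' spot files came from Agilent Feature Extraction 10.7.1.1, while the methods name GenePix Pro and a scaling to U6. The intensity of each spot was used as deposited, after that software's background subtraction, together with its marks for outlier spots and spots well above background. Control spots and outlier spots were left out. Spots were averaged per probe (7 to 15 spots) and probes summed per miRNA (190 members had 2 probes and 10 had 3), and signals were scaled to each array's 75th percentile over the common miRNAs. No spot was saturated. The number of arrays, 1 a group, limits the precision, and spread between spots is all that could be measured. A fold written as "at least" sets the array above background against the higher of the other array's own signal and its lowest signal above background. Where the own signal was the higher, the fold is a ratio without a spot SD and not a strict lower limit. The log2 values normalised by the authors served as an alternative, and for HFD-EV they came from the table of that comparison because the column in the combined table was not on the same scale. The authors' own fold-change columns were not used.

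Members were chosen by name, and the members and marker lists were chosen with earlier results of these data known, so no pattern given here is independent support of those. Named members are the 3 markers of the set (miR-7005-5p, miR-6938-5p, miR-6955-5p), the 10 brightest, the 5 highest and 5 lowest ratios past 2 spot SDs and the 3 largest bounds each way in each comparison, and members that share a seed with another detected member. Ratios were computed in Python 3.11.15 with numpy 2.4.6 and pandas 2.3.3, tested on simulated data with known folds. R 4.3.3 with limma 3.58.1 gave the normexp correction (offset 50). Sequences, positions and gene spans came from RefSeq on GRCm38.p6.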

Additional observations from a re-analysis of the deposited data

Results flagged for a closer look

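For 4 members the ratios of Ggpps loss on the 2 diets, and for 6 members the diet ratios of the 2 genotypes, ran in opposite directions, each past 2 spot SDs. With 1 array a group the difference itself was not tested. The ratio of Ggpps loss of miR-7032-5p was 1.09 ± 0.13 with the high-fat diet and -0.33 ± 0.13 with chow, a difference of 1.42 on the log2 scale. Its diet ratio was 0.70 ± 0.12 in Ggpps-deficient mice and -0.72 ± 0.14 in WT mice, which is the same difference of 1.42 by construction. The ratio of Ggpps loss of miR-6969-5p was 0.29 ± 0.06 with the high-fat diet and -0.30 ± 0.07 with chow, a difference of 0.59, but with quantile normalisation the first was 0 and the second 0.10, so the directions were not opposite there. The ratio of Ggpps loss of miR-6939-5p was 0.34 ± 0.09 with the high-fat diet and -0.98 ± 0.09 with chow, and its diet ratio 0.64 ± 0.09 in Ggpps-deficient and -0.67 ± 0.09 in WT mice, a difference of 1.32 either way. For miR-7020-5p the difference was 1.18 either way, with 0.96 ± 0.04 and -0.23 ± 0.06 for Ggpps loss on the high-fat diet and on chow, and 0.80 ± 0.06 and -0.38 ± 0.05 for the diet in Ggpps-deficient and WT mice. Its chow ratio turned positive without scaling and in the authors' normalised values. The diet ratios of miR-7081-5p (0.27 ± 0.13 and -0.62 ± 0.15), miR-7043-5p (0.27 ± 0.13 and -0.43 ± 0.19) and miR-7018-5p (0.31 ± 0.07 and -0.17 ± 0.07) in Ggpps-deficient and WT mice differed by 0.89, 0.70 and 0.47. In the authors' normalised values the first of these for miR-7043-5p was -0.0075.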

How the results depend on the processing

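No paired analysis was possible because the labels give no replicate numbers and the ratios come from no test, and with 1 array a group none could be left out. Counts are of members at least 2-fold different and medians are log2 ratios of the members. Over all miRNAs the main counts, higher and lower, were 14 and 9 in HFD-EV over Chow-EV and 15 and 28 in Chow-LKO EV over Chow-EV. They were 41 and 39 in HFD-LKO EV over HFD-EV and 22 and 8 in HFD-LKO EV over Chow-LKO EV. Without scaling, HFD-EV over Chow-EV had 4 higher, 1 lower and a median of 0.23, Chow-LKO EV over Chow-EV 7, 2 and 0.16, and HFD-LKO EV over Chow-LKO EV 5 lower and a median of -0.070, opposite in sign. Of all miRNAs, 32 were then higher and 5 lower in HFD-EV over Chow-EV. With the 75th percentile over all miRNAs, 0 were higher in HFD-EV over Chow-EV, where miR-7042-5p turned to -0.0050, and the medians were 0.043 for Chow-LKO EV over Chow-EV and -0.0057 for HFD-LKO EV over Chow-LKO EV, again opposite in sign. Of all miRNAs, 10 were higher in HFD-EV over Chow-EV with that scaling. With quantile normalisation, 4 were lower in HFD-EV over Chow-EV (14 of all miRNAs). The median of HFD-LKO EV over Chow-LKO EV was then 0.011, and miR-6969-5p turned to 0.10 in Chow-LKO EV over Chow-EV. With normexp, 0 were lower in HFD-EV over Chow-EV, 0 higher and 2 lower in Chow-LKO EV over Chow-EV, 1 higher and 0 lower in HFD-LKO EV over HFD-EV, and 0 either way in HFD-LKO EV over Chow-LKO EV, and in Chow-LKO EV over Chow-EV miR-6918-5p (-0.015) and miR-6947-5p (-0.042) turned. Of all miRNAs, 2 were lower in HFD-EV over Chow-EV with normexp, and 1 was higher and 1 lower in HFD-LKO EV over Chow-LKO EV. Since normexp adds an offset of 50, its ratios of dim members are smaller by construction. With the authors' normalised values, 1 was lower in HFD-EV over Chow-EV, 0 higher and 1 lower in Chow-LKO EV over Chow-EV, 3 higher and 0 lower in HFD-LKO EV over HFD-EV, and 0 either way in HFD-LKO EV over Chow-LKO EV. Over all miRNAs these values gave 3 lower in the first of these comparisons, and 5 higher and 2 lower in the second. They gave 16 and 6 in the third and 2 and 1 in the last.

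With the brightest probe alone, 2 were higher in HFD-EV over Chow-EV and 2 in HFD-LKO EV over Chow-LKO EV, as with outlier spots kept for the second (2), and the members' share of signal was 18.4% in HFD-LKO EV, 17.2% in Chow-LKO EV, 19.1% in HFD-EV and 16.6% in Chow-EV. Of all miRNAs, 16 and 21 were higher in these comparisons with the brightest probe, and 22 in the second with outlier spots kept. With Feature Extraction's own total signal per miRNA, higher and lower counts were 3 and 10 in HFD-EV over Chow-EV, 7 and 10 in Chow-LKO EV over Chow-EV, 17 higher in HFD-LKO EV over HFD-EV, and 3 and 7 in HFD-LKO EV over Chow-LKO EV, with shares of 14.9%, 14.7%, 15.9% and 14.0%. There miR-6901-5p turned to -2.23 in HFD-EV over Chow-EV and 1.67 in HFD-LKO EV over HFD-EV, miR-7037-5p to 4.75 in HFD-EV over Chow-EV, and miR-6934-5p to 6.59 in Chow-LKO EV over Chow-EV and -6.30 in HFD-LKO EV over Chow-LKO EV. Over all miRNAs that total gave 17 higher and 22 lower in HFD-EV over Chow-EV and 22 and 44 in Chow-LKO EV over Chow-EV. It gave 55 higher in HFD-LKO EV over HFD-EV, and 31 and 22 in HFD-LKO EV over Chow-LKO EV. Under normexp the shares were 16.7% in HFD-LKO EV, 15.7% in Chow-LKO EV and 15.1% in Chow-EV. With Feature Extraction's detection call, 2 were higher and 4 lower in HFD-EV over Chow-EV, 10 lower in Chow-LKO EV over Chow-EV, 14 higher in HFD-LKO EV over HFD-EV, and 5 higher and 1 lower in HFD-LKO EV over Chow-LKO EV. Of all miRNAs, that call gave 19 higher and 21 lower in the first of these comparisons and 47 lower in the second. It gave 58 higher in the third, and 40 higher and 7 lower in the last. With signals over 30 required, 1 was lower in HFD-EV over Chow-EV and 3 in HFD-LKO EV over HFD-EV (6 and 24 of all miRNAs). At 1.5-fold, higher and lower counts were 13 and 17 in HFD-EV over Chow-EV, 13 and 17 in Chow-LKO EV over Chow-EV, 18 and 19 in HFD-LKO EV over HFD-EV, and 20 and 11 in HFD-LKO EV over Chow-LKO EV. These 1.5-fold counts were taken for the members only, so they have no share over all miRNAs beside them. Except where the construction shows it, the cause was not tested. Of 1697 ratios of named members under these settings 88 turned sign, 20 of them with the total signal per miRNA, and the 9 given here are those past 2 spot SDs. Ratios within 2 spot SDs also turned far with the total signal, as for miR-6946-5p (4.62), miR-7034-5p (3.13) and miR-7019-5p (-3.60). Signal over background limits the dim members, since the lowest signals above background lay between 13.8 and 19.9.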
